A study of Mus musculus with 2 samples.

Results

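Ppbp, Pf4, Nrgn, Gp5, Itga2b, Clec1b, Cavin2, Vwf, Alox12 and Parvb are 10 genes of platelets and of the megakaryocytes that make them. They were taken by symbol, as listed genes, from the 32285 genes of the feature table, and all 10 were present once. Their unique molecular identifiers (UMIs, each one captured transcript) were counted in neutrophils, classical and nonclassical monocytes, NK cells, T cells and B cells of mouse blood, to see which leukocytes carry platelet transcripts. The single-cell RNA-seq data comprised 2 libraries, 1 from wild-type (WT) C57BL/6J mice and 1 from APP/PS1 mice, a transgenic line that expresses mutant human amyloid precursor protein and presenilin and develops brain amyloid. Each library pooled blood cells of 3 mice, and the APP/PS1 mice were female and 7 months old. The WT mice were of that age too, and neither genotype received a treatment. The promoter that drives the transgenes was not given in the sources used here. Blood was treated with ammonium chloride to remove red cells and then enriched for neutrophils by negative selection, so the cells of other types are those that this step left behind. With 1 library a genotype there was no replicate, no test was made and every interval is a 95% interval for counting error only, which understates the error wherever a few cells hold many of the UMIs.

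Platelets are small fragments of megakaryocytes that have no nucleus but carry megakaryocyte RNA. Activated platelets put P-selectin on their surface, bind P-selectin ligand on leukocytes and then hold on through integrins, so that a leukocyte and a platelet can enter a droplet together and share a barcode. Leukocytes of the types studied here are not known for making the chemokines and receptors of the platelet list, and B cells served as the type in which they should be lacking. RNA that floats free in the suspension also gives a low count of such genes in every cell.

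The chemokine genes Ppbp and Pf4 are neighbours on chromosome 5, where Ppbp lies at chr5:90768518-90770063 and Pf4 at chr5:90772435-90773383, both on the + strand, with 2371 bases between them (GRCm38, GENCODE gene models). The other members lie apart, Nrgn at chr9:37544492-37552904, Gp5 at chr16:30307685-30310779, Itga2b at chr11:102453297-102470122 and Alox12 at chr11:70241457-70255353 on the - strand, and Clec1b at chr6:129397297-129409335, Vwf at chr6:125546774-125686679, Cavin2 at chr1:51289126-51302960 and Parvb at chr15:84232043-84315688 on the + strand. All 10 are protein-coding. RefSeq promoters, 250 bases before to 50 after the start site in the GRCm38.p6 build, were matched for 9 of the 10. The 3 printed here show how the neighbouring chemokine genes and Gp5 share 1 short run of letters close to the start site. Each line holds the 250 bases before the start, 5′ to 3′ on the strand of the gene, and capitals mark matches on either strand to the ETS letters GGAAGT or GGAAAT, the GATA letters AGATAA or TGATAA, or the RUNX letters TGTGGT.
Ppbp promoter, chr5:90768268-90768517, + strand: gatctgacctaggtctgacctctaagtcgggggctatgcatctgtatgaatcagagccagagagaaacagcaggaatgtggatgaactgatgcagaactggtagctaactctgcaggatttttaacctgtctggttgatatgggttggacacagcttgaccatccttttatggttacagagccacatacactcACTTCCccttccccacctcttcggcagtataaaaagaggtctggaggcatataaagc
Pf4 promoter, chr5:90772185-90772434, + strand: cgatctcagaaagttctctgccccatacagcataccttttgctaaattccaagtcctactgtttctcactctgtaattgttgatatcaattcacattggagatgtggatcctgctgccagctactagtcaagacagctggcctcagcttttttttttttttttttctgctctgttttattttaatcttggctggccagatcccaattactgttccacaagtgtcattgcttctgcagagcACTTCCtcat
Gp5 promoter, chr16:30310782-30311031, - strand: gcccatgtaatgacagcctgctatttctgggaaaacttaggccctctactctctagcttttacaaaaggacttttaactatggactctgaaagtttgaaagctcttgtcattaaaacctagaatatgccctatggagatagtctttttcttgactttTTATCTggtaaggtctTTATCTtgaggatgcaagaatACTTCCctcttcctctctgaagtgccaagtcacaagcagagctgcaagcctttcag
ETS, GATA and RUNX proteins are families of transcription factors known from megakaryocytes. GGAAGT was present in 6 of the 9 promoters, those of Cavin2, Ppbp, Pf4, Nrgn, Itga2b and Gp5, against 23.8% of all 32851 mouse promoters of that length. The other ETS run, GGAAAT, was in none of them, against 17.7% of all promoters. Either ETS run was thus in 6 of 9, against 37.1%. For Itga2b and Nrgn the RefSeq start lies inside the GENCODE gene, downstream of its 5′ end, so where their promoters lie is uncertain. GGAAGT began 57 bases before the start in Ppbp, 10 in Pf4 and 56 in Gp5, each time on the opposite strand. A GATA run was present in 3 of 9, those of Pf4, Clec1b and Gp5, against 18.6% of all promoters, and the RUNX run was in 0 of 9, against 16.8%. A match describes the letters and is not a binding site.

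The WT library held 17123 barcodes with 92458623 UMIs and the APP/PS1 library 17645 with 84870864. After the limits on genes, UMIs and mitochondrial share, 14564 and 15208 cells remained, with a median of 3274.5 and 3085.5 UMIs. Clusters were named from marker genes, and each name stands for cells with that marker profile. There were 7594 neutrophils in WT and 9603 in APP/PS1, 2368 and 1711 classical monocytes, 2319 and 1402 nonclassical monocytes, 425 and 765 NK cells, 384 and 510 T cells, and 304 and 307 B cells. Neutrophils therefore were the most frequent type but not the only one, although the samples are labelled as neutrophils. A further 618 WT and 545 APP/PS1 cells were left unnamed and stand outside the types compared. Most lay in a cluster of 1091 cells whose best marker score was that of nonclassical monocytes (1.52), with neutrophils second (0.20). This cluster held 3.75 and 4.62 UMIs of the 10 genes per cell, and the values for nonclassical monocytes leave it out. Called doublets were 79.8% of unnamed WT cells with 3 or more UMIs of the 10 genes and 56.5% of the rest. In APP/PS1 they were 70.4% and 50.3%. In named nonclassical monocytes they were 5.62% and 1.01% in WT and 8.24% and 0.697% in APP/PS1. All 7 neutrophil markers, and every marker of the other types except 1 of the 7 of classical monocytes, were highest in their own type among the types compared. The libraries shared 83 barcodes, of which 63 were kept in both.

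Platelet transcripts were found in all 6 leukocyte types, and classical monocytes and neutrophils held the most. Per cell, classical monocytes carried 6.71 UMIs of the 10 genes in WT (95% interval 6.61 to 6.82) and 7.80 in APP/PS1 (7.66 to 7.93). Neutrophils carried 3.72 (3.68 to 3.76) and 5.04 (4.996 to 5.09). T cells carried 2.41 and 2.50, nonclassical monocytes 1.98 and 1.92, NK cells 1.85 and 2.01, and B cells 1.85 and 1.20. Classical monocytes thus exceeded neutrophils 1.80-fold in WT (1.77 to 1.84) and 1.55-fold in APP/PS1 (1.52 to 1.58). All 10 genes were highest per cell in classical monocytes in both libraries. The share of all genes that were highest per cell there was not counted, so nothing is read from that count.

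**Figure D1:**
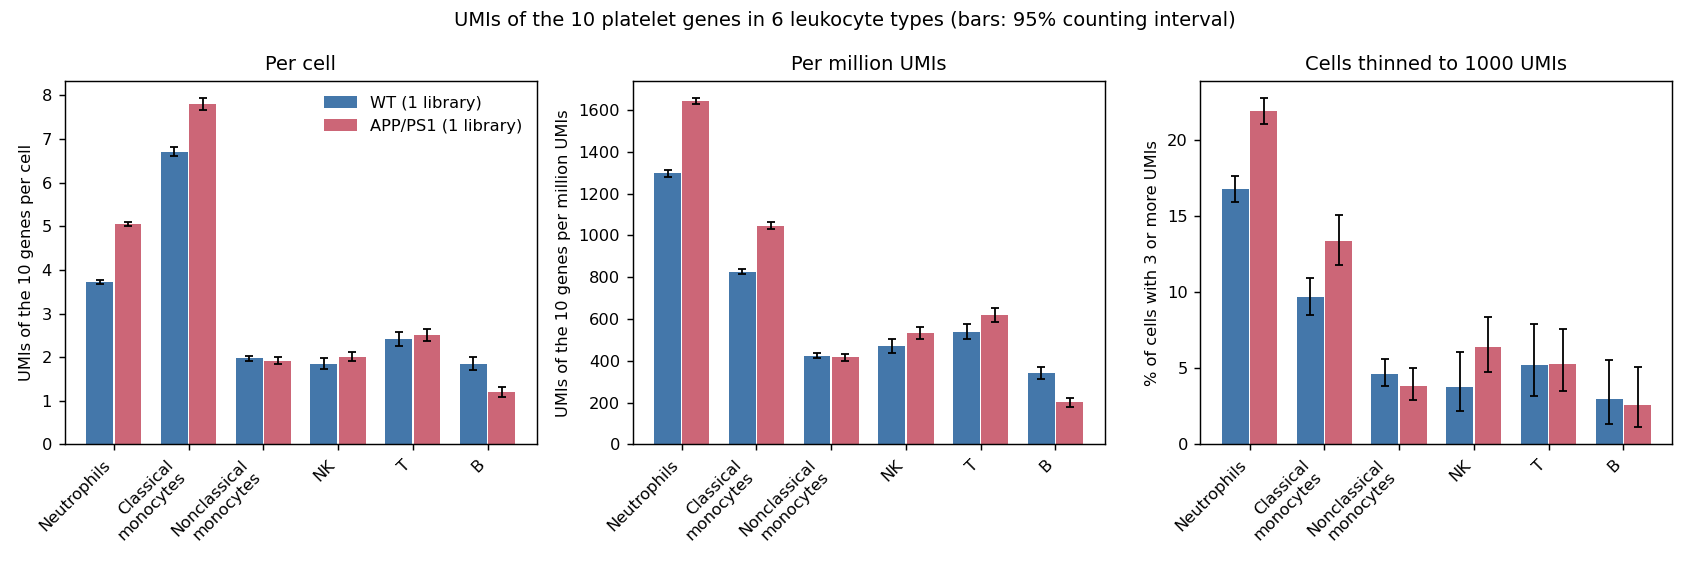
UMIs of the 10 platelet genes in 6 leukocyte types, per cell (left), as CPM, the counts per 1000000 UMIs of the type (middle) and as the percentage of cells with 3 or more of these UMIs after each cell was thinned to 1000 UMIs (right). Bars are 1 library each and error bars are 95% counting intervals. Classical monocytes are highest on the left, at 6.71 and 7.80, whereas neutrophils are highest in the other panels, at 1296 and 1641 CPM and 16.8% and 21.9%.

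The order of these leading types depended on the scale. Classical monocytes were deeper cells, with a median of 8107 UMIs in WT and 7575 in APP/PS1 against 2551 and 2701 in neutrophils. As a share of all UMIs of the type (CPM), the 10 genes made up 1296 CPM in WT neutrophils and 1641 in APP/PS1 neutrophils, against 827 and 1047 CPM in classical monocytes, a ratio of 0.638 in both libraries. Neutrophils had the highest CPM for 9 of 10 genes in WT and 10 of 10 in APP/PS1, and Parvb was the exception at 35.7 CPM in WT classical monocytes against 34.7 in WT neutrophils. The share of all genes with their highest CPM in neutrophils was not counted either, so nothing is read from these counts. For the sum of the 10 genes, neutrophils and classical monocytes stood above the other 4 types on both scales.

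Against B cells, neutrophils held 2.01-fold more of these UMIs per cell in WT (1.85 to 2.19) and 4.21-fold more in APP/PS1 (3.80 to 4.67). Classical monocytes held 3.63-fold (3.34 to 3.96) and 6.50-fold more (5.86 to 7.23). Nonclassical monocytes were at 1.07-fold in WT (0.981 to 1.17) and NK cells at 0.999-fold (0.895 to 1.12), so the intervals of both held 1 on the scale per cell. On the CPM scale, which allows for the deeper B cells, they were at 1.25-fold (1.14 to 1.36) and 1.38-fold (1.24 to 1.54) in WT. In APP/PS1, where B cells were lower, they were at 1.60-fold and 1.68-fold per cell and 2.07-fold and 2.65-fold by CPM. T cells were at 1.30-fold in WT (1.17 to 1.45) and 2.09-fold in APP/PS1 (1.86 to 2.35).

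T cells did not form a uniform group. The larger cluster, led by Cd8b1, Cd8a and Trac, held 1.73 of these UMIs per cell in WT and 1.76 in APP/PS1, close to NK cells and to B cells of WT. The smaller cluster, led by Il7r, Trdc, Cxcr6 and Tcrg-C1, held 4.66 in its 89 WT cells and 6.80 in its 75 APP/PS1 cells. It made up 44.9% and 40% of the platelet-gene UMIs of T cells. Its median depth was 4938 UMIs against 3448.5 in the larger cluster.

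At least 1 UMI of the 10 genes was seen in 68.6% of WT neutrophils and 72.2% of APP/PS1 neutrophils, in 84.2% and 82.2% of classical monocytes, and in 52.3% and 36.5% of B cells, whose median depth was 5004.5 and 5875 UMIs. A single UMI was therefore not taken to mark a cell as carrying a platelet, and cells were also counted from 3 UMIs upward. That share was 59.5% in WT and 59.7% in APP/PS1 for classical monocytes and 39.4% and 46.0% for neutrophils. In T cells it was 27.6% and 23.9%, in nonclassical monocytes 23.0% and 18.2%, in NK cells 21.9% and 20.9%, and in B cells 23.0% and 14.01%. The WT shares of nonclassical monocytes and NK cells, to 3 digits, were at or below that of B cells, whereas their CPM was higher, so no order of these types is read from the shares.

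The boundary at 3 UMIs cuts a continuous range and defines no cell type. In neutrophils 862 WT cells held exactly 2 and 640 exactly 3, and in APP/PS1 966 and 759 did. To compare types at 1 depth, 1000 UMIs were drawn at random from every cell, and 3 shallower APP/PS1 cells (2 neutrophils, 1 NK cell) could not be used. The share with 3 or more was then 16.8% in WT neutrophils (15.9 to 17.6) and 21.9% in APP/PS1 neutrophils (21.1 to 22.7). It was 9.67% and 13.4% in classical monocytes, 5.21% and 5.29% in T cells, 3.76% and 6.41% in NK cells, 4.66% and 3.85% in nonclassical monocytes and 2.96% (1.36 to 5.55) and 2.61% (1.13 to 5.07) in B cells. At equal depth, the intervals of neutrophils and classical monocytes lay above that of B cells in both libraries. In APP/PS1 those of NK cells (4.78 to 8.39) and T cells (3.52 to 7.61) overlapped it. Called doublets were 34.4% of APP/PS1 NK cells with 3 or more UMIs before thinning.

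The UMIs were concentrated in a minority of cells of each type. The 10% of cells with the most platelet-gene UMIs held 49.8% of them in WT neutrophils and 48.2% in APP/PS1 neutrophils, 41.2% and 44.9% in classical monocytes, and 52.8% and 64.9% in B cells. The variance of the UMIs over cells was 12.5 and 13.3 times the mean in neutrophils, 12.2 and 16.9 in classical monocytes and 6.11 and 6.33 in B cells, where a Poisson count would give a ratio near 1. Among cells with 3 or more, the median load was 6 UMIs in WT neutrophils and 7 in APP/PS1, 7 and 8 in classical monocytes, and 5 in B cells of both libraries. The 90th percentile of the same cells was 16 and 21 UMIs in neutrophils, 22 and 26 in classical monocytes and 12.1 and 10.8 in B cells.

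**Figure D2:**
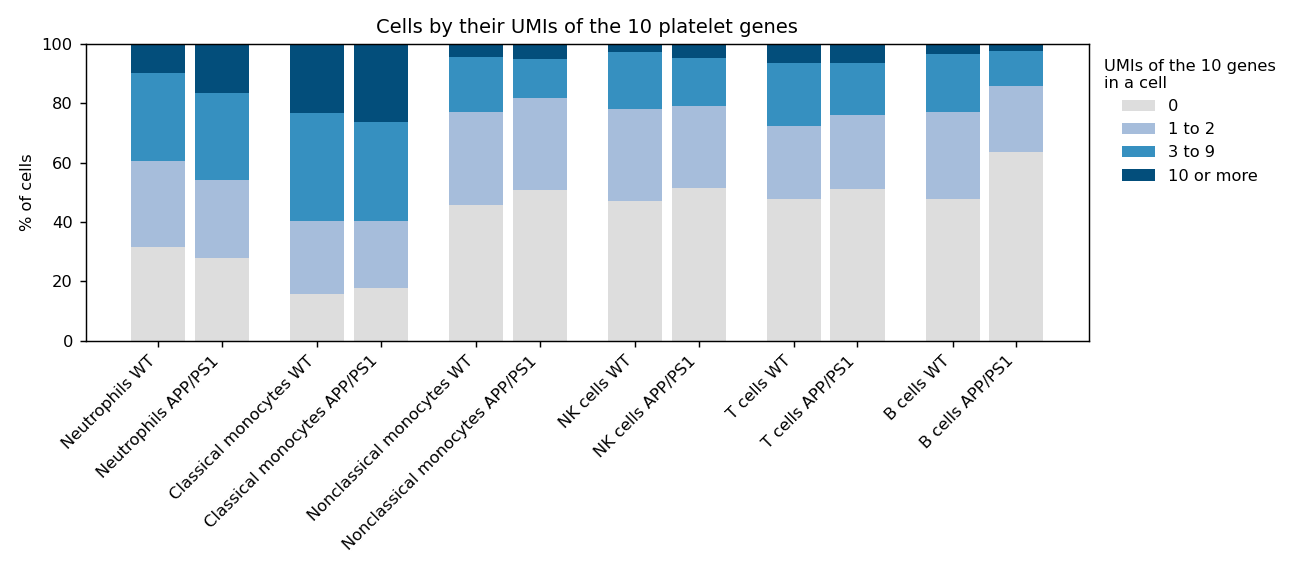
Percentage of cells (y axis) with 0, 1 to 2, 3 to 9 and 10 or more UMIs of the 10 platelet genes, for 6 leukocyte types in the WT and APP/PS1 libraries. Cells with 10 or more are most frequent in classical monocytes, at 23.3% and 26.2%, then in neutrophils, at 9.90% and 16.5%, and make up 3.29% and 2.28% of B cells.

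Cells with high loads also held the markers of their leukocyte type. The 7 neutrophil markers summed to 502 UMIs per cell in WT neutrophils with 0 platelet-gene UMIs and 553 in those with 10 or more, and to 433 and 531 in APP/PS1. The median depth of the same cells was 2444 and 2901 UMIs in WT and 2517 and 3087 in APP/PS1. In WT classical monocytes the marker sum was 43.3 and 59.9 UMIs per cell and the median depth 7401 and 8926. As CPM, the neutrophil markers were at 187215 in WT neutrophils with 0 and 162837 in those with 10 or more, and at 157133 and 142994 in APP/PS1. The NK cell markers were at 21701 and 16002 CPM in WT and 21786 and 15565 in APP/PS1, where the median depth was 3188 and 5452 UMIs. In WT NK cells the sum per cell was lower too, at 82.1 and 72.6 UMIs, the second over 12 cells. Classical monocyte markers were at 5997 and 6646 CPM in WT and 7342 and 7462 in APP/PS1.

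The neutrophils were not evenly loaded. One neutrophil cluster of 3499 cells, 17.5% of WT and 22.6% of APP/PS1 neutrophils, was led by Cald1, Clec1b, Alox12, Itga2b and other platelet genes. The 10 genes were not used for the clustering, but other genes of the platelet profile were, so the cluster was formed in part by platelet transcripts and its load is a description. It held 11.4 of their UMIs per cell in WT and 13.2 in APP/PS1, that is 53.4% and 59.4% of those of all neutrophils. Its neutrophil markers were near those of the other neutrophils, with Csf3r, the G-CSF receptor, at 2357 against 2386 CPM, and S100a8, an abundant granulocyte protein, at 53746 against 59315 CPM. When every gene of the platelet profile was left out of the clustering, 3464 of its cells, or 99%, were again called neutrophils, and no neutrophil cluster was led by platelet genes. The remaining large neutrophil clusters, led by Csf1 and by Retnlg, held between 1.83 and 1.99 UMIs per cell, and the cluster led by interferon-induced genes such as Ifit3 held 3.51 and 4.65.

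Barcodes that held platelet RNA and little else gave a reference profile. Without limits on genes and UMIs, 123 WT and 153 APP/PS1 barcodes formed a platelet cluster, with a median of 634 and 658 UMIs, and the 10 genes made up 5.40% and 5.51% of their UMIs. They held 40.4 and 40.1 UMIs of these genes per barcode, and Pf4 was detected in 99.2% and 98.0% of them. In each library 15 of them passed the limits and were counted among neutrophils.

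Ppbp and Pf4 encode chemokines of the platelet alpha granule. Ppbp was detected in 39.9% of WT and 40.6% of APP/PS1 classical monocytes, in 28.4% and 31.5% of neutrophils, and in 16.1% and 10.4% of B cells. Pf4, platelet factor 4, was detected in 62.8% and 59.3% of classical monocytes, 45.9% and 48.4% of neutrophils, 35.7% and 28.6% of T cells, 32.1% and 27.2% of nonclassical monocytes, 29.2% and 24.6% of NK cells and 32.2% and 15.3% of B cells. Per 1000 cells there were 2096 and 2144 Pf4 UMIs in classical monocytes and 592 and 296 in B cells. For both chemokines, the shares of T cells, NK cells and nonclassical monocytes lay near that of B cells in WT. By CPM these types lay above B cells in WT, with T cells the highest of them. For Ppbp, T cells were at 70.6 CPM (58.6 to 84.4) against 43.0 (33.6 to 54.3) in B cells. For Pf4 they were at 167 (148 to 187) against 109 (93.7 to 126).

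**Figure D3:**
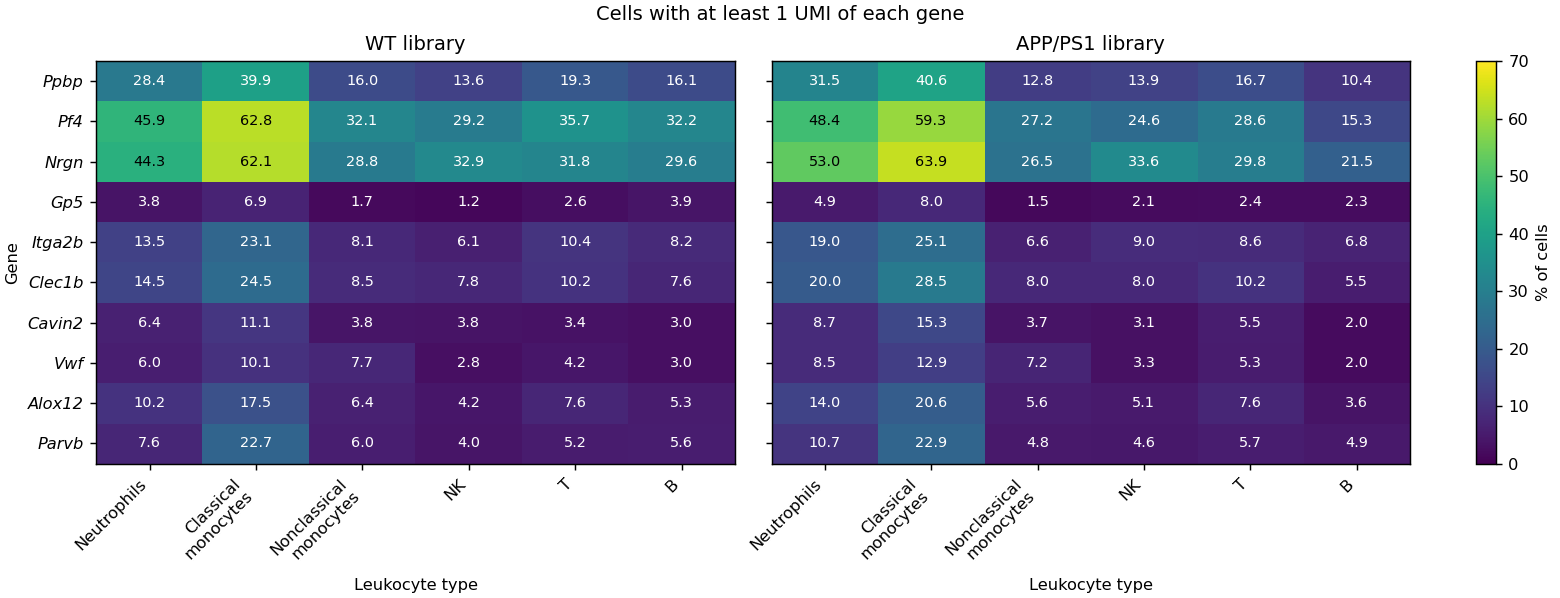
Percentage of cells with at least 1 UMI of each of the 10 platelet genes (rows) in 6 leukocyte types (columns) in the WT (left) and APP/PS1 (right) libraries, printed in each cell and coloured from 0 to 70%. Pf4 and Nrgn are the most often detected, at 62.8% and 62.1% in WT classical monocytes, and classical monocytes lead every row. The percentages are not adjusted for the depth of the cells.

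The receptors and the adhesion protein were rarer. Itga2b encodes the alpha chain of the platelet fibrinogen receptor and was detected in 23.1% of WT and 25.1% of APP/PS1 classical monocytes, 13.5% and 19.0% of neutrophils and 8.22% and 6.84% of B cells. Clec1b, the platelet receptor for podoplanin, was detected in 24.5% and 28.5% of classical monocytes, 14.5% and 19.99% of neutrophils and 7.57% and 5.54% of B cells. Gp5, a subunit of the receptor complex for von Willebrand factor, had the lowest shares, 6.88% and 8.01% in classical monocytes and 3.77% and 4.93% in neutrophils. Its B cell values rested on 12 and 8 UMIs.

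Vwf, which encodes von Willebrand factor itself, departed from the common pattern in nonclassical monocytes. It was detected in 7.68% of WT and 7.20% of APP/PS1 nonclassical monocytes, against 5.99% and 8.52% of neutrophils, 2.82% and 3.27% of NK cells and 2.96% and 1.95% of B cells. It made up 4.44% (3.87 to 5.08) and 4.72% of the UMIs of the 10 genes in these cells, against 1.95% and 2.07% in neutrophils and 2.36% and 2.53% in platelet barcodes. Of its UMIs in nonclassical monocytes, 61.3% and 63.8% lay in cells that also held a Ppbp or Pf4 UMI, against 87.5% and 89.7% in neutrophils. Such cells were 38.2% and 32.0% of nonclassical monocytes and 54.2% and 56.0% of neutrophils. Endothelial cells also make von Willebrand factor, and of 6 endothelial genes 4 had a UMI in WT and 2 in APP/PS1 nonclassical monocytes, with a sum of 2.49 and 2.48 CPM. Egfl7 and Tek were at 0 in nonclassical monocytes of both libraries, and Esam, which was also found in platelet barcodes at 348 and 270 CPM, was at 1.85 and 2.17 CPM.

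Nrgn encodes neurogranin, a calmodulin-binding protein known from neurons whose transcript is also abundant in platelets. It was detected in 62.1% of WT and 63.9% of APP/PS1 classical monocytes, 44.3% and 53.0% of neutrophils, 32.9% and 33.6% of NK cells and 29.6% and 21.5% of B cells. Its share of the UMIs of the 10 genes was larger in leukocytes than in platelet barcodes, at 29.9% and 33.5% in neutrophils and 36.2% and 39.6% in NK cells against 19.9% (18.8 to 21.1) and 23.0% (22.0 to 24.1). In NK cells 63.4% and 68.9% of its UMIs lay in cells with a Ppbp or Pf4 UMI, against 92.3% and 91.6% in classical monocytes. Such cells were also rarer in NK cells, at 34.6% and 29.5% against 70.1% and 66.6% in classical monocytes. In WT NK cells the other members apart from the chemokines ran from 50% (Cavin2) to 100% (Gp5, on 9 UMIs). The cause was not tested.

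Alox12, the platelet arachidonate lipoxygenase, and Cavin2, a coat protein of caveolae, followed the sum of the 10 genes. Alox12 was detected in 17.5% of WT and 20.6% of APP/PS1 classical monocytes, 10.2% and 14.02% of neutrophils and 5.26% and 3.58% of B cells. Cavin2 was detected in 11.1% and 15.3% of classical monocytes, 6.44% and 8.65% of neutrophils and 2.96% and 1.95% of B cells. Parvb, the integrin-associated protein beta-parvin, was more frequent in classical monocytes, at 22.7% and 22.9%, than in neutrophils, at 7.64% and 10.7%. It made up 4.32% and 3.91% of the UMIs of the 10 genes in classical monocytes against 2.67% and 2.76% in neutrophils. In classical monocytes 84.1% and 86.8% of its UMIs lay in cells with a Ppbp or Pf4 UMI, below the 91.2% to 95.5% of the members other than Parvb and the chemokines.

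**Figure D4:**
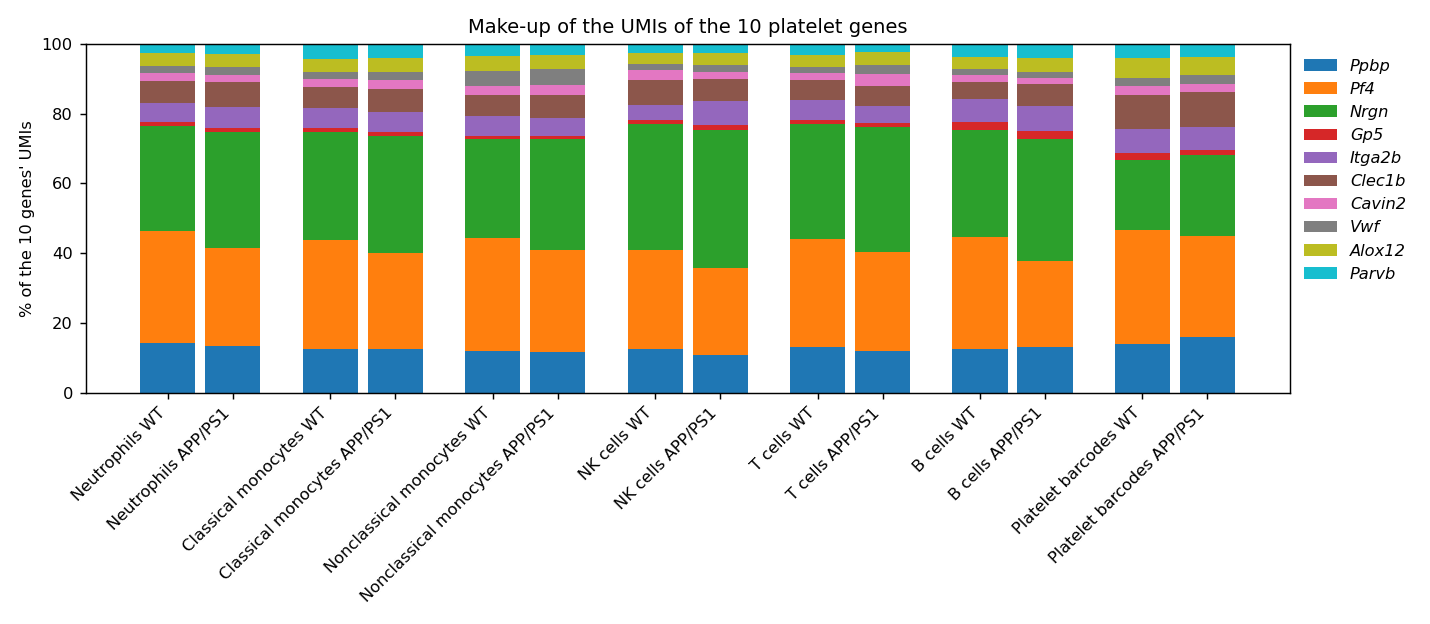
Share of each gene in the UMIs of the 10 platelet genes (y axis, percent) for 6 leukocyte types and for platelet barcodes, in the WT and APP/PS1 libraries. Nrgn takes 28.4% to 39.6% in leukocytes and 19.9% and 23.0% in platelet barcodes, and Vwf takes 4.44% and 4.72% in nonclassical monocytes.

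The other members were compared by their share of the 10 genes' UMIs in each type. Ppbp made up 10.7% to 14.2% in the 6 types and 13.9% and 16.0% in platelet barcodes, and Pf4 made up 24.7% to 32.3% and 32.7% and 29.0%. Clec1b was at 6.30% (6.02 to 6.59) and 6.94% in neutrophils and between 4.98% and 7.39% in all types, against 9.95% (9.13 to 10.8) and 9.99% in platelet barcodes. Alox12 was at 3.31% to 4.25% in the types and 5.72% and 5.24% in platelet barcodes. Gp5 ranged from 0.929% to 2.17%, Itga2b from 4.20% to 7.34% and Cavin2 from 1.63% to 3.45%. The 2 highest Gp5 shares were those of B cells and rested on 12 and 8 UMIs. The members also occurred together within cells. A Ppbp or Pf4 UMI was present in 54.2% of WT neutrophils, and these cells held between 83.8% and 92.4% of the UMIs of each other member. In B cells, 39.5% of WT cells had a Ppbp or Pf4 UMI and held 74.0% of the Nrgn UMIs and 81.1% of the 37 Itga2b UMIs. Clustering of platelet transcripts in the same cells was thus seen in B cells too.

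The main neutrophil transcripts were spread differently over B cells. S100a8 and S100a9, the most abundant neutrophil transcripts, were found in 99.7% of WT and 98.7% of APP/PS1 B cells, at a median of 8 UMIs in both libraries, whereas the median of the 10 platelet genes in B cells was 1 and 0. The highest 10% of B cells held 83.2% and 78.8% of the S100a8 and S100a9 UMIs. Cells called doublets by Scrublet were 15.7% of WT and 18.6% of APP/PS1 B cells with 3 or more platelet-gene UMIs and 10.3% and 3.41% of the other B cells, and the part of doublets in these UMIs was not tested. In NK cells of APP/PS1 they were 34.4% against 6.45%, and in neutrophils 0.534% and 3.28% of cells with 3 or more against 0 and 0.444% of the rest.

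Other genes whose counts followed the 10 genes over neutrophils were sought among 7118 genes with at least 200 UMIs, by the mean over both libraries of Pearson's r between the log-normalized gene and the members' sum. Cells of a library share depth and preparation, and the values are descriptions. Ctla2a, which encodes a protein related to cathepsin propeptides, was the most alike (r = 0.649 in WT and 0.695 in APP/PS1), followed by Gng11, a G protein gamma subunit (0.563 and 0.624), and Tsc22d1 (0.461 and 0.507). The next 12 were Rgs10, Myl9, Lsm12, Gp9, 1810058I24Rik, Itga6, Clu, Tmsb4x, Ctla2b, Cd9, S100a10 and Ywhah, with mean r from 0.436 down to 0.348. Of these 15 genes 5 are in a list of 25 other platelet genes, and the median r over all genes was -0.00105.

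That list of 25 other platelet genes gave a like order per cell. It summed to 18.2 UMIs per cell in WT and 19.3 in APP/PS1 classical monocytes, 8.28 and 10.3 in neutrophils, 5.67 and 6.08 in T cells and 3.79 and 2.88 in B cells. By CPM the order of these 2 leading types was the other way, at 2888 and 3338 in neutrophils against 2240 and 2598 in classical monocytes. Of its genes with at least 50 UMIs, 16 of 22 in WT and 18 of 23 in APP/PS1 were highest per cell in classical monocytes. The share of all genes that were highest per cell in these deeper cells was not counted, so nothing is read from this count. Gp9, another subunit of the receptor complex that holds Gp5, was 1.76-fold and 1.62-fold higher per cell in classical monocytes than in neutrophils. Several genes of the list are also made by leukocytes. In WT classical monocytes 13388 of the list's 43038 UMIs were those of Thbs1. Thbs1, thrombospondin, was 4.98-fold and 5.59-fold higher in classical monocytes than in neutrophils, Pdgfb was highest in nonclassical monocytes, and Selp, P-selectin, was highest in neutrophils at 20.1 and 20.6 CPM.

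On the leukocyte side, the genes for platelet-binding proteins followed the platelet-gene order by CPM only in part. Selplg, which encodes the ligand of P-selectin, was at 772 and 773 CPM in neutrophils, 511 and 541 in NK cells, 450 and 510 in T cells, 275 and 266 in classical monocytes, 235 and 239 in nonclassical monocytes and 107 and 92.4 in B cells. Itgam, the alpha chain of a leukocyte integrin that binds platelet glycoproteins, was at 480 and 487 CPM in neutrophils, 310 and 308 in classical monocytes and 384 and 365 in nonclassical monocytes. Its partner Itgb2 was at 447 and 469 CPM in neutrophils, 589 and 526 in NK cells and 687 and 771 in nonclassical monocytes. In NK cells Itgam was at 366 and 369 CPM. The integrin genes Itgal, at 1230.5 and 1295.8 CPM, and Itgax, at 141 and 122, were highest in nonclassical monocytes. Cd40 was highest in B cells, at 30.3 and 34.4 CPM. B cells were lowest of the 6 types for Selplg and Itgb2 in both libraries.

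Relative to all UMIs of the type, platelet-gene UMIs were higher in APP/PS1 than in WT in neutrophils and classical monocytes, and lower in B cells. As a ratio of CPM, the sum of the 10 genes was 1.27-fold in neutrophils (1.25 to 1.28) and 1.27-fold in classical monocytes (1.24 to 1.30). It was 0.982-fold in nonclassical monocytes (0.936 to 1.03), 1.13-fold in NK cells (1.04 to 1.24), 1.15-fold in T cells (1.05 to 1.25) and 0.591-fold in B cells (0.517 to 0.675). The value in NK cells turned to a log2 ratio of -0.25 when called doublets were removed. That in nonclassical monocytes, a log2 ratio of -0.03, was 0.27 with 30 principal components and -0.25 without called doublets. With 1 library of pooled mice each, genotype, pool, blood draw and platelet handling cannot be told apart.

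In neutrophils all 10 genes were above 0 on the log2 scale, with a median of 0.40 against 0.05 over all 9495 genes with at least 50 UMIs. A log2 ratio of 0.5 or more was reached by 1 of 10, Nrgn at 0.50 (388 CPM in WT and 550 in APP/PS1), beside 6.03% of all genes, and -0.5 was reached by 0 of 10, beside 4.44%. Clec1b at 0.48 and Itga2b at 0.46 lay just short of it, and Pf4, at 418 and 462 CPM, was lowest at 0.14. In classical monocytes 2 of 10 reached 0.5, beside 3.20% of all genes, namely Vwf at 0.60 (15.4 and 23.2 CPM) and Cavin2 at 0.58 (18.8 and 28.2 CPM), and 0 of 10 reached -0.5, beside 4.45%. The median of the 10 was 0.45 there, against -0.03 over all 10273 genes, and Pf4 was again lowest at 0.16.

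**Figure D5:**
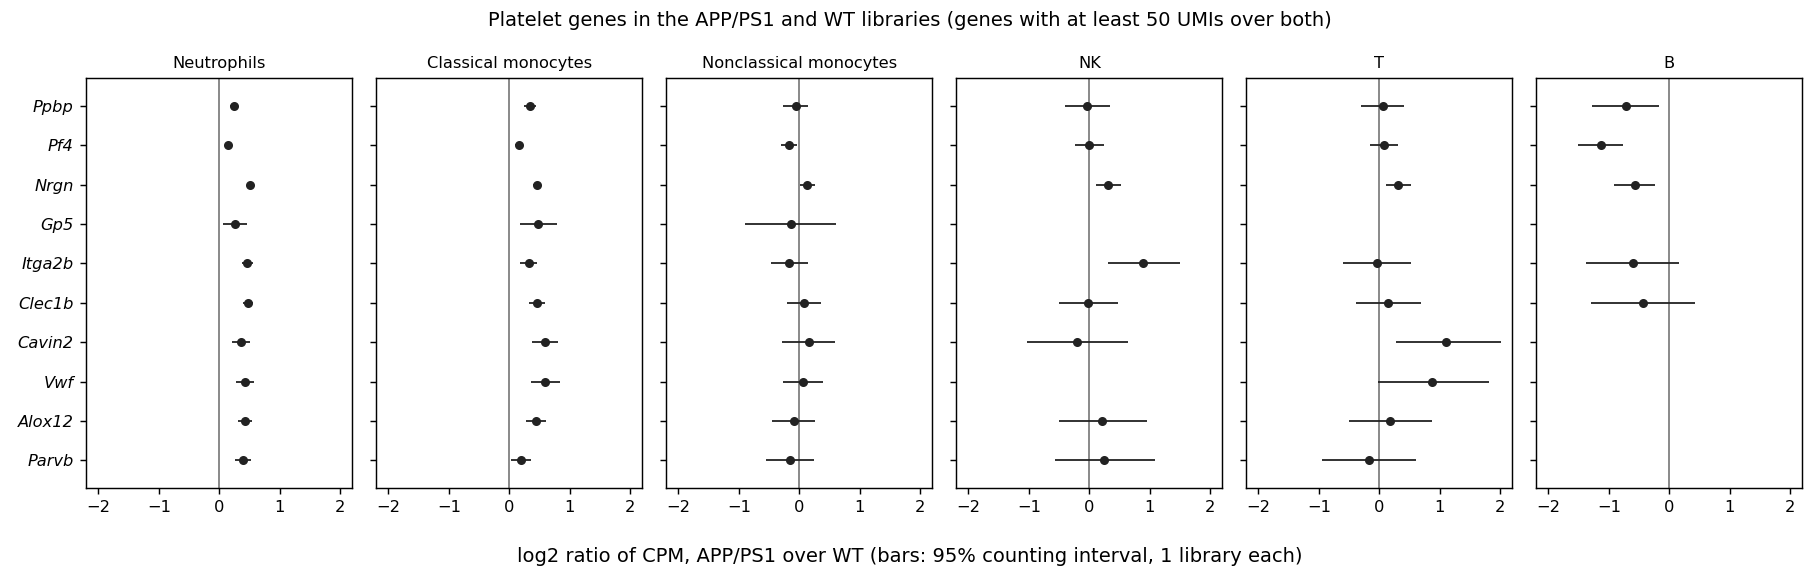
log2 ratio of CPM, APP/PS1 over WT (x axis), of each platelet gene (y axis) in 6 leukocyte types, for genes with at least 50 UMIs over both libraries. Points are single ratios of 1 library to 1 library and bars are 95% counting intervals. All 10 genes lie to the right of 0 in neutrophils and classical monocytes, and the 5 genes shown for B cells lie to the left.

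In nonclassical monocytes 0 of 10 reached 0.5 or -0.5, beside 3.16% and 4.47% of all genes. In NK cells 1 of the 8 members with enough UMIs was past 0.5, beside 6.08% of genes, which was Itga2b at 0.89 on 33 WT and 106 APP/PS1 UMIs, and 0 of 8 were past -0.5, beside 3.89%. In T cells 2 of 9 were past 0.5, beside 6.79%, namely Cavin2 at 1.10 on 17 and 44 UMIs and Vwf at 0.86 on 16 and 35 UMIs, and 0 of 9 were past -0.5, beside 5.61%. In B cells 4 of 5 members were past -0.5, beside 8.99% of genes, and 0 of 5 past 0.5, beside 5.61%. Pf4 was at -1.13 there, with 109 CPM in WT and 49.8 in APP/PS1 on 180 and 91 UMIs, Ppbp at -0.71, Itga2b at -0.60 and Nrgn at -0.57.

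Outside the 6 types, MHC class II-high dendritic cells carried the most platelet-gene UMIs per cell, 10.6 in 177 WT cells and 13.8 in 116 APP/PS1 cells, and 74.6% and 79.3% of them held 3 or more. Their median depth in the cluster was 8700 UMIs, and by CPM they were at 0.928 times the level of neutrophils in WT (0.885 to 0.972) and 1.005 times in APP/PS1 (0.956 to 1.06).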

How the data were processed

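Blood cells of APP/PS1 and WT mice were profiled with 10x Genomics 3′ chemistry, 1 library each. The deposited values were counts: raw UMI counts per gene and barcode that, per the labels, the authors made with Cell Ranger 5.0.0 on mm10, without normalization. Cells within the 5th to 95th percentile of genes and of UMIs of their library and with at most 10% mitochondrial UMIs were kept, as in the study's methods. Counts were log-normalized, clustered with Seurat 5.3.0 in R 4.3.3 (2000 variable features without the platelet genes, 15 principal components, resolution 0.5) and named from marker lists, where the best mean marker score had to reach 1 and lead by 0.5. That naming limit was set after the clusters were seen. The 2 libraries were clustered without the integration the study used. Doublets were called with Scrublet in Scanpy 1.11.5 and kept in the main values. The threshold of the APP/PS1 library called 0 cells, so the WT threshold was used for both, which called 1548 WT and 1286 APP/PS1 barcodes. The platelet genes, the other lists and the rules were chosen with earlier results of these data known.

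UMIs were summed by type and library, given per cell and as CPM of all UMIs of the type, with exact Poisson, Clopper-Pearson or conditional binomial 95% intervals (SciPy 1.17.1). UMIs count 3′ ends, so levels were not corrected for length. Cells were thinned to 1000 UMIs to compare shares at equal depth. A gene counted as past the fold at a log2 CPM ratio of 0.5 or -0.5 with at least 50 UMIs over both libraries. Genes were named by likeness to the members' sum over neutrophils (the 15 highest). The ratio and interval code was tested on simulated data. Alternatives for cell limits, doublets, clustering, depth and members summed were computed.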

Additional observations from a re-analysis of the deposited data

Results flagged for a closer look

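The APP/PS1 over WT ratio of the summed platelet genes pointed one way in B cells and the other way in 4 other types. The log2 ratio of CPM was -0.76 in B cells, 0.34 in neutrophils, 0.34 in classical monocytes, 0.18 in NK cells and 0.20 in T cells, with counting intervals that left out 0. The direction in NK cells was not stable, at -0.25 without called doublets and -0.0137 for Ppbp and Pf4 alone. The difference between types was not tested, since each value rests on 1 library a genotype, and the B cell value rests on 562 WT and 368 APP/PS1 UMIs.

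Barcodes outside the comparisons also held platelet-gene UMIs. The barcodes left out by the limits held 11.9 per barcode in WT and 12.9 in APP/PS1, against 3.88 and 4.77 in the kept cells. These values per barcode make no allowance for depth. Platelet barcodes held 40.4 per barcode in WT and 40.1 in APP/PS1. The 857 WT and 883 APP/PS1 barcodes above the UMI limit held 27.3 and 26.5 per barcode. That limit was 14225 UMIs in WT and 11657 in APP/PS1, where the kept cells had a median of 3274.5 and 3085.5 UMIs. In all, the barcodes left out held 35.0% of the platelet-gene UMIs of the WT library and 30.2% of those of the APP/PS1 library.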

How the results depend on the processing

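The ratio of classical monocytes to neutrophils in platelet-gene UMIs per cell was log2 0.85 in WT and 0.63 in APP/PS1. It reversed to -0.69 and -0.68 when cells were thinned to 1000 UMIs, which makes the count a share of each cell's UMIs. It was 1.76 and 1.47 without percentile limits, 1.19 and 1.0 at resolution 0.2, 0.97 and 0.71 with 30 principal components, 0.96 and 0.72 with platelet genes among the features, 0.77 and 0.58 for Ppbp and Pf4 alone, 0.92 and 0.66 for the other members, 0.79 and 0.59 without called doublets, and, in WT, 0.81 with percentiles over both libraries. The ratio of neutrophils to B cells (1.01 and 2.07) was 1.81 and 2.73 when thinned, 0.79 and 1.53 without limits and 0.76 and 1.79 at resolution 0.2. The APP/PS1 over WT ratio in neutrophils (0.34) was 0.28 when thinned, 0.17 for Ppbp and Pf4, 0.47 for the other members, 0.37 with 30 components, 0.37 with platelet genes among the features, 0.31 at resolution 0.2 and 0.44 per cell. In classical monocytes (0.34) it was 0.28 when thinned, 0.21 for Ppbp and Pf4, 0.43 for the other members, 0.39 without limits and 0.22 per cell. After the data were seen, 2 alternatives were added. With the platelet-profile genes left out of the features, these ratios were 0.93 and 0.67 for classical monocytes over neutrophils and 0.37 for APP/PS1 over WT in neutrophils, and without the kept platelet barcodes 0.91 and 0.66 and 0.37. Also added were the genotype ratios of the other 4 types. In nonclassical monocytes (-0.03) the ratio reversed to 0.0026 without limits, 0.27 with 30 components, 0.16 at resolution 0.2, 0.058 for the 8 members other than the chemokines and 0.28 with the platelet-profile genes left out. With 30 components and with those genes left out, this type took in a second cluster, of 1089 and 1302 cells. In the main clustering a cluster of 1091 cells with the same best match was unnamed, and most unnamed cells were called doublets. In NK cells (0.18) the ratio reversed to -0.25 without called doublets and -0.0137 for Ppbp and Pf4. In B cells it stayed below 0 in all alternatives run. The cause of these shifts was not tested, nor whether the UMIs per cell of a type reflect its RNA content. At resolution 0.2 a cluster of 489 cells led by Clec1b was unnamed, so the neutrophils of that setting leave it out. Its best match was neutrophils, at a score of 0.92 where 1 was needed.

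The share of cells past the threshold moved with that threshold. In the order neutrophils, classical and nonclassical monocytes, NK, T and B cells, each in WT and APP/PS1, the percentages were 50.8 and 56.1, 70.1 and 69.2, 33.5 and 27.5, 32.2 and 28.4, 34.4 and 31.8, 34.5 and 21.2 from 2 UMIs upward, 24.7 and 32.2, 44.4 and 45.3, 12.5 and 10.5, 11.8 and 12.5, 18.8 and 15.5, 12.2 and 8.14 from 5, 9.90 and 16.5, 23.3 and 26.2, 4.27 and 4.99, 2.82 and 4.84, 6.25 and 6.47, 3.29 and 2.28 from 10, and 16.8 and 21.9, 9.67 and 13.4, 4.66 and 3.85, 3.76 and 6.41, 5.21 and 5.29, 2.96 and 2.61 from 3 when thinned. Classical monocytes were at 65.8% and 67.1% without limits, and at 57.5% in WT without called doublets. NK cells of APP/PS1 were at 15.6% without called doublets, and nonclassical monocytes at 27.1% and 26.7% with the platelet-profile genes left out. No paired analysis was possible because each genotype had 1 library.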
